A study of Phaseolus vulgaris with 6 samples.

Results

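The deposited table of pod transcripts from common bean (Phaseolus vulgaris) lists 19598 genes, and 11 of them carry the annotation HAD superfamily, subfamily IIIB acid phosphatase. Of these, the 5 on chromosome 10 are described here. They were taken by gene identifier and annotation. Phvul.010G144200, Phvul.010G144300 and Phvul.010G144600 lie near 41.57 Mb, and Phvul.010G058800 and Phvul.010G059000 lie near 9.72 Mb. The study sequenced RNA from whole developing pods of the navy bean cultivars Albion and Voyager, with 3 samples of each, chosen because Voyager holds more zinc in its seeds. The sample labels mark Albion as low and Voyager as normal in zinc concentration, and they describe both genotypes as grown with sufficient zinc. No other treatment separates them. The labels give 20 days after anthesis for all 6 samples, whereas the methods of the study give a younger age for the sequenced pods. A pair of pods from each pot was ground whole, so wall and seed RNA are mixed. Fewer cells of a type and less RNA per cell cannot be told apart in such samples.

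Expression was measured in FPKM, a count of fragments per gene divided by gene length and by library size. The table holds 1 value per gene and genotype, pooled by the authors over 3 samples. The spread between replicates is therefore unknown, no test between the genotypes was possible, and every difference below is a difference between 2 pooled values. The depth behind a value is also unknown. Because FPKM is scaled to length, levels of different genes could be set side by side within a genotype.

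HAD proteins are a large superfamily of hydrolases, many of them phosphatases, that share a catalytic aspartate. Plant acid phosphatases of subfamily IIIB include the vegetative storage proteins of soybean and Arabidopsis, which accumulate in vegetative and floral tissue and respond to jasmonate. In French bean a related pod storage protein is known to build up in the pod when seeds are removed. The annotation of the table is by homology to A. thaliana and does not say which of the bean genes, if any, encodes that protein.

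The chromosome 10 copies spanned more than 4 orders of magnitude in level in the same pods. Phvul.010G144300, from 41578655 to 41580230 in the v1.0 genome, had 3745 FPKM in Albion and 14679 FPKM in Voyager. Its neighbour Phvul.010G144200, from 41570598 to 41572203, had 245 FPKM in Albion and 418 FPKM in Voyager. The third copy of the group, Phvul.010G144600, from 41588474 to 41590998, had 0.29 FPKM in Albion and 0.84 FPKM in Voyager. Thus the most and the least expressed members belonged to the same group. Only 8.24 kb separated their gene models, and 2 other listed genes lay in that interval. The first pair of copies, Phvul.010G144200 and Phvul.010G144300, were 6.45 kb apart with no listed gene between them.

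Both copies near 9.72 Mb were expressed at low levels. Phvul.010G058800, from 9722370 to 9724509, had 3.02 FPKM in Albion and 3.94 FPKM in Voyager. Phvul.010G059000, from 9739220 to 9743457, had 1.74 FPKM in Albion and 1.61 FPKM in Voyager. All 4 values lay under the median of the listed genes, at 11.1 FPKM for Albion and 11.7 FPKM for Voyager. The order of the members was the same in both genotypes, from Phvul.010G144300 through Phvul.010G144200, Phvul.010G058800 and Phvul.010G059000 to Phvul.010G144600. The steps at the lower end were small, with 1.74-fold between the copies near 9.72 Mb in Albion and 2.45-fold in Voyager. Whether these low neighbours in the order differ beyond their spread is not known.

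**Figure D1:**
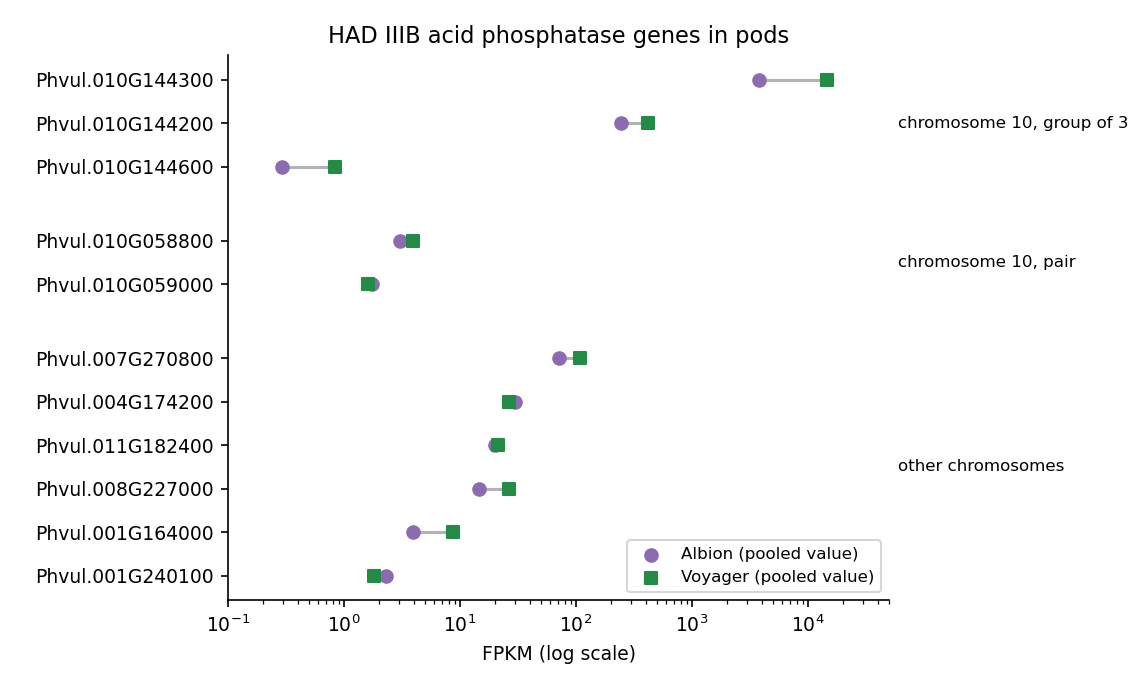
FPKM (log scale) of the 11 HAD IIIB acid phosphatase genes, with a circle for the pooled Albion value and a square for the pooled Voyager value of each gene. Phvul.010G144300 reached 14679 FPKM in Voyager, and Phvul.010G144600 of the same group stayed under 1 FPKM in both genotypes.

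The group near 41.57 Mb summed to 3990 FPKM in Albion and 15097 FPKM in Voyager. The copies near 9.72 Mb summed to 4.76 FPKM in Albion and 5.55 FPKM in Voyager. The ratio of these sums was 838 in Albion and 2720 in Voyager. Most of it rested on Phvul.010G144300, and without this gene the ratio was 51.5 in Albion and 75.5 in Voyager. Position in the group did not by itself go with a high level, since Phvul.010G144600 was lower than both copies near 9.72 Mb in each genotype. The gene models of the 2 strongly expressed copies spanned 1606 and 1576 bp, whereas those of the other members spanned from 2140 to 4238 bp. A short model did not by itself go with a high level. Phvul.001G164000, a HAD IIIB gene on chromosome 1, spanned 1605 bp with 3.97 FPKM in Albion and 8.61 FPKM in Voyager.

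Phvul.010G144300 was among the most abundant transcripts of the pod. It ranked 12 of all listed genes in Albion and 3 in Voyager, and its share of all summed FPKM was 0.451% in Albion and 1.54% in Voyager. The Voyager value was 3.92 times the Albion value, a difference of 1.97 on the log2(FPKM + 1) scale. In FPKM the difference was 10934, which was 9.15% of the amount by which the sum over all genes was higher in Voyager. A single listed gene had a larger difference in this direction. Among the 100 genes of highest mean FPKM, 3 were at least 2-fold higher in Voyager, Phvul.010G144300 included, and 1 was at least 2-fold higher in Albion.

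Of the 5 members, 1 passed 2-fold with Voyager higher and 0 passed it with Albion higher. Over all listed genes, 2.55% were at least 2-fold higher in Voyager on the log2(FPKM + 1) scale and 1.76% were at least 2-fold higher in Albion. A single gene of so short a list says nothing of the list as a whole. With a mean of at least 100 FPKM, the level range of Phvul.010G144300 and Phvul.010G144200, 2.06% of genes passed 2-fold with Voyager higher and 1.03% with Albion higher. By the size of its difference, 174 listed genes lay beyond Phvul.010G144300, 104 with Voyager higher and 70 with Albion higher, and the median of their mean levels was 8.45 FPKM.

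The adjacent gene Phvul.010G144200 differed less between the genotypes. Its Voyager value was 1.71 times its Albion value, a log2 difference of 0.77, which is under 2-fold. The ratio between Phvul.010G144300 and Phvul.010G144200 was therefore not constant, at 15.3 in Albion and 35.1 in Voyager. If the gene models share sequence, reads could be divided between these copies. The methods of the study name the default settings of Cufflinks, under which a read with several matches is shared equally among them.

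Phvul.010G144600 had 2.90 times its Albion value in Voyager, and its log2 difference was 0.51 with a pseudocount of 1 and 1.27 with a pseudocount of 0.1. Its direction was fixed by how genes entered the table. The higher of the 2 values was at least 0.73 FPKM for every listed gene. A gene as low as Phvul.010G144600 in Albion is therefore listed only where Voyager is higher, and all 205 genes with at most 0.29 FPKM in Albion had the higher value in Voyager. Phvul.010G058800 had a log2 difference of 0.30 and Phvul.010G059000 of -0.07. Neither of these copies was near 2-fold in either direction.

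**Figure D2:**
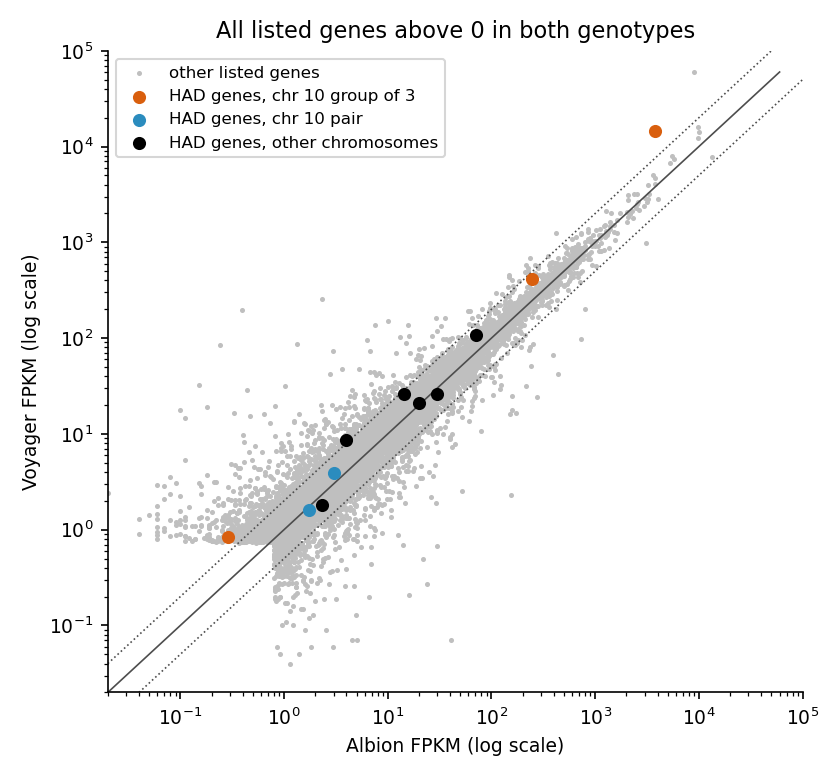
FPKM in Voyager against FPKM in Albion (both log scales) for the listed genes above 0 in both genotypes, with the HAD IIIB genes in colour. The solid line marks equal values and the dotted lines mark a 2-fold ratio of FPKM without a pseudocount. Phvul.010G144300 lies above the upper dotted line at the high end, and Phvul.010G144600 lies at the lower edge of the table, where genes with both values low are absent. Phvul.010G144600 and Phvul.001G164000 also lie above that line, though under 2-fold on the log2(FPKM + 1) scale.

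Tandem copies with unequal levels were common in the table. Among 832 pairs of adjacent listed genes with the same annotation and at most 20 kb apart, the median ratio of mean FPKM within a pair was 2.46. For Phvul.010G144300 and Phvul.010G144200 the ratio of mean FPKM was 27.8, and 37 pairs (4.45%), this one included, had a ratio at least as large. The log2 differences between the genotypes were 1.20 apart for these adjacent copies, against a median of 0.25 over the pairs, and 78 pairs (9.38%) were at least as far apart. Where a gene of the pair reached a mean of 100 FPKM, as here, 23 of 100 pairs had a ratio at least as large and 9 had differences at least as far apart. This description was added after the values had been seen.

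The 6 HAD IIIB genes on other chromosomes were expressed well below the strong copies of chromosome 10. Phvul.007G270800, on chromosome 7 from 50924005 to 50926143, was the highest of them, with 71.3 FPKM in Albion and 108 FPKM in Voyager. Phvul.010G144300 exceeded it 52.5-fold in Albion and 136-fold in Voyager. Together these genes summed to 142 FPKM in Albion and 192 FPKM in Voyager, and chromosome 10 supplied 96.6% of the FPKM of the 11 genes in Albion and 98.7% in Voyager.

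Of these other copies, 0 reached 2-fold on the log2(FPKM + 1) scale. Phvul.001G164000 came closest, with 3.97 FPKM in Albion and 8.61 FPKM in Voyager and a log2 difference of 0.95, just under the threshold. Its Voyager value was 2.17 times its Albion value, and it passed 2-fold, at 1.10, with a pseudocount of 0.1. Phvul.008G227000 had 14.5 FPKM in Albion and 26.3 FPKM in Voyager, a log2 difference of 0.81. These were the values nearest to 2-fold, and both were higher in Voyager. Phvul.004G174200, with 29.7 and 26.4 FPKM, and Phvul.001G240100, with 2.30 and 1.82 FPKM, were higher in Albion. Phvul.011G182400 had 19.9 FPKM in Albion and 21.1 FPKM in Voyager, a log2 difference of 0.08 that became -0.10 when each genotype was scaled to a total of 1000000. In all, 8 of the 11 genes had the higher value in Voyager as deposited and 7 after that scaling. Among all 19598 listed genes, 12133 were higher in Voyager as deposited and 6543 after that scaling. The median log2 difference of the 11 genes was 0.51, and that of all listed genes was 0.07. The value of 0.51 is that of Phvul.010G144600, whose direction was fixed by the lower bound of the table. With this gene set aside, the median of the other 10 was 0.44. With a pseudocount of 10, the median was 0.10 for the 11 genes and 0.03 for all listed genes.

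The genes around the group near 41.57 Mb did not share the difference of Phvul.010G144300. Within 100 kb of the group, 0 of 20 other listed genes passed 2-fold in either direction, and their log2 differences ran from -0.78 to 0.63. Genes past 2-fold were also rare among all listed genes, at 2.55% with Voyager higher and 1.76% with Albion higher. The count of 0 in 20 thus says little by itself. The next gene before the group, Phvul.010G144100 without an annotation, had 2.72 FPKM in Albion and 3.20 FPKM in Voyager. Beyond it lay Phvul.010G144000, annotated as an insulinase family peptidase, with 38.9 FPKM in Albion and 44.9 FPKM in Voyager. Inside the group, between the highest and the lowest member, Phvul.010G144400 had 2.29 and 2.03 FPKM and the pentatricopeptide repeat gene Phvul.010G144500 had 1.75 and 2.13 FPKM. Within 100 kb the high level was thus limited to Phvul.010G144300 and Phvul.010G144200, and the third HAD copy, Phvul.010G144600, did not share it. The highest mean of any other gene within 100 kb was 48.8 FPKM. Further out, Phvul.010G142300, annotated as a ribosomal L28e protein, had 245 FPKM in Albion and 263 FPKM in Voyager.

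The largest difference within 50 kb, the members aside, was that of Phvul.010G143900, annotated as phosphofructokinase 3, a gene of glycolysis. It had 6.67 FPKM in Albion and 3.48 FPKM in Voyager, a log2 difference of -0.78, opposite in sign to the HAD copies beside it. On the other side of the group, the nuclear poly(A) polymerase gene Phvul.010G144800 had 17.9 FPKM in Albion and 18.9 FPKM in Voyager. Within 250 kb, 3 of 49 genes (6.12%) passed 2-fold, all with Voyager higher, against 2.55% of all listed genes. One of them, Phvul.010G142400, was listed at 0 in Albion, so its direction was fixed by the lower bound of the table. With a pseudocount of 10, 0 of the 49 genes passed, against 0.551% of all listed genes.

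Near 9.72 Mb the picture around the low copies was as follows. Phvul.010G058900, which lies between them and has no annotation, had 20.4 FPKM in Albion and 21.0 FPKM in Voyager and was more highly expressed than either copy. The thioredoxin H-type 9 gene Phvul.010G058600 had 31.5 FPKM in Albion and 34.3 FPKM in Voyager. Low levels were thus not shared by all genes of this region. Within 50 kb, the alpha-galactosidase 1 gene Phvul.010G058400 had 1.90 FPKM in Albion and 0.13 FPKM in Voyager, and it passed 2-fold with Albion higher. As it was so low in Voyager, its direction was fixed by the lower bound of the table.

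**Figure D3:**
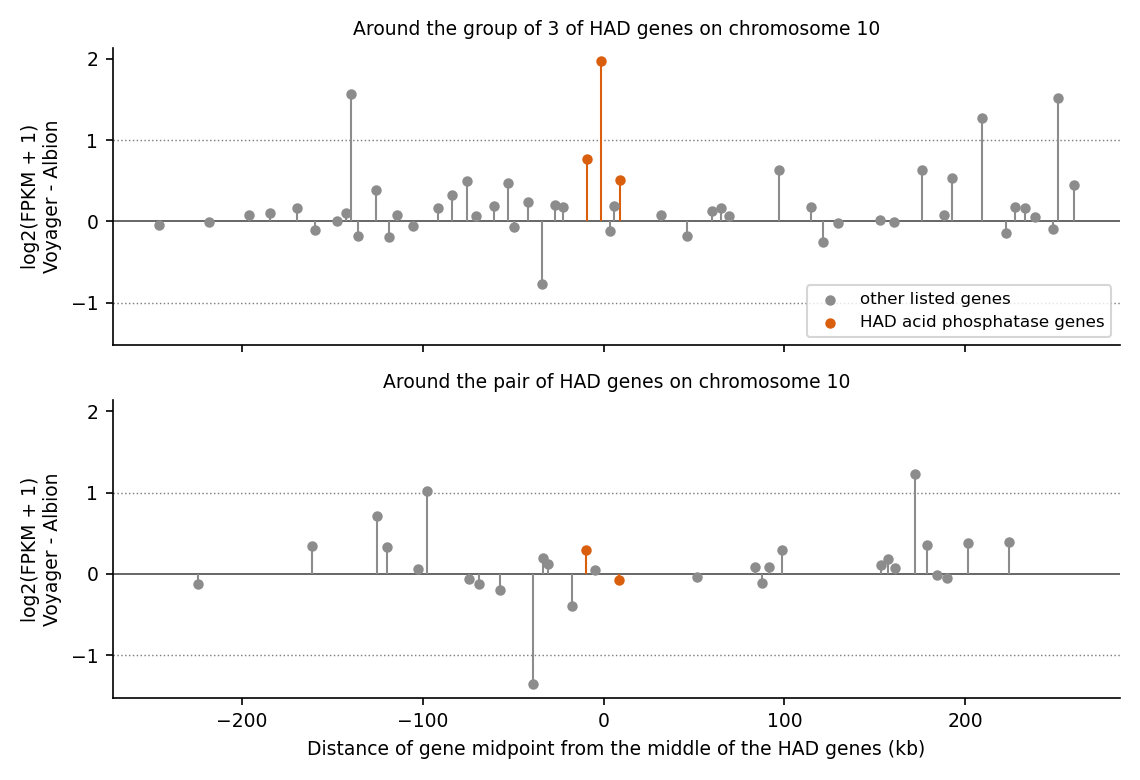
Difference between Voyager and Albion in log2(FPKM + 1) for each listed gene within 250 kb of the HAD genes near 41.57 Mb (upper panel) and near 9.72 Mb (lower panel), against the distance of the gene midpoint in kb. Dotted lines mark 2-fold, and Phvul.010G144300, at 1.97, has the largest difference in either panel.

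Few genes had levels like those of Phvul.010G144300. Likeness was taken as the distance between genes over log2(FPKM + 1) in the 2 genotypes, so it rests on 2 values per gene. The closest genes were LTP3 (Phvul.010G069100), a lipid transfer protein, at a distance of 1.06, and the PAP85 cupin genes Phvul.007G060000 and Phvul.007G059700, at 1.17 and 1.24. Cupins of this kind include seed storage proteins. LTP3 had 5561 FPKM in Albion and 7910 FPKM in Voyager, and the cupin genes had 5795 and 7440 FPKM and 5284 and 6671 FPKM. All 3 were above Phvul.010G144300 in Albion and below it in Voyager.

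For the other members the closest genes were much nearer, as many genes share such levels. Phvul.003G067400, which has no annotation, had 246 FPKM in Albion and 423 FPKM in Voyager and lay 0.02 from Phvul.010G144200. The basic pathogenesis-related protein 1 gene Phvul.006G196900, with 261 and 386 FPKM, was the third closest to it. Phvul.010G058800 was closest to the RAB GTPase homolog C2A gene Phvul.007G140100, with 3.03 and 3.96 FPKM. Phvul.010G059000 was closest to the sorting nexin gene Phvul.003G011400, with 1.73 and 1.62 FPKM. At these low levels a close match is easily found, and it was not taken as a relation between the genes.

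Other phosphatase and phosphate genes were far below Phvul.010G144300. Over all listed genes, as above, 2.55% passed 2-fold with Voyager higher and 1.76% with Albion higher. Among 55 other genes annotated as haloacid dehalogenase, 0 passed 2-fold with Voyager higher and 1 (1.82%) with Albion higher, and the highest, Phvul.005G072900, had 165 FPKM in Albion and 162 FPKM in Voyager. Among 23 purple acid phosphatase genes, which belong to a separate metal-dependent family, 0 passed 2-fold with Voyager higher and 2 (8.70%) with Albion higher. The highest of these, Phvul.002G168300, had 58.1 and 58.7 FPKM, and purple acid phosphatase 10 (Phvul.011G008700), a secreted enzyme of phosphate-starved roots in Arabidopsis, had 46.2 and 55.4 FPKM. Of 25 genes of phosphate transport and starvation, 0 passed 2-fold in either direction. The mitochondrial carrier gene PHT3;1 (Phvul.001G086600) had 176 FPKM in Albion and 174 FPKM in Voyager. The median log2 differences of these 3 lists were 0.03, 0.02 and -0.02, and the first 2 turned negative when each genotype was scaled to the same total.

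A list of jasmonate and lipoxygenase genes held 51 genes. Jasmonate is the hormone to which vegetative storage proteins respond in soybean and Arabidopsis. Of the 51 genes, 8 (15.7%) passed 2-fold with Voyager higher and 0 with Albion higher, against 2.55% and 1.76% of all listed genes. The list median was 0.28. With a pseudocount of 10, 4 genes (7.84%) passed with Voyager higher, against 0.551% of all listed genes. Lipoxygenases add oxygen to fatty acids. In Arabidopsis lipoxygenase 2 feeds jasmonate synthesis, whereas lipoxygenase 1 oxidises another carbon of the fatty acid and does not. The list holds 14 genes annotated as lipoxygenase 1, of which 4 (28.6%) passed 2-fold with Voyager higher, and 4 of the 37 other genes (10.8%) did so. In each part, 1 of the genes that passed was so low in Albion that the lower bound of the table fixed its direction. This split was added after the values had been seen. The most expressed, the lipoxygenase 1 gene Phvul.005G156900, had 2077 FPKM in Albion and 3083 FPKM in Voyager, and another lipoxygenase 1 gene, Phvul.010G134900, had 1310 and 1285 FPKM. A list of 100 genes was taken by words for storage proteins, such as cupin and 2S albumin. The 2S albumin annotation also names lipid transfer proteins, so not every gene listed need encode a storage protein. Of the 100 genes, 5 (5%) passed 2-fold with Voyager higher and 1 (1%) with Albion higher. Their median was 0.10 and became -0.05 when each genotype was scaled to the same total.

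**Figure D4:**
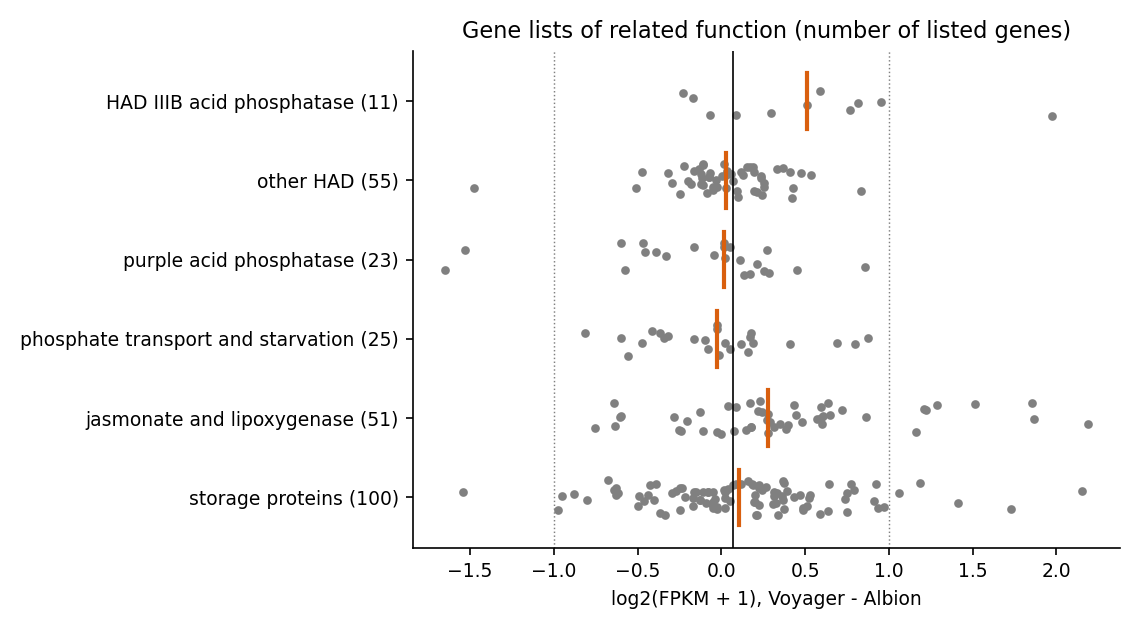
Difference between Voyager and Albion in log2(FPKM + 1) for each listed gene of 6 lists, with an orange bar at the list median, a black line at the median of all listed genes and dotted lines at 2-fold. The rightmost HAD IIIB point, at 1.97, is Phvul.010G144300, and 8 of the 51 points of the jasmonate and lipoxygenase list lie beyond 2-fold.

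Genes listed as tissue markers were present in both genotypes. The paper reports that, by weight, the sampled pods held more wall and less seed in Voyager than in Albion. Shares of FPKM do not measure these weights. Genes annotated with seed terms, 152 in number and including all 100 genes of the storage protein list, accounted for 3.16% of all FPKM in Albion and 3.00% in Voyager. Photosynthesis genes, 84 in number and listed as markers of the green pod wall, made up 2.55% in Albion and 2.02% in Voyager. Genes listed as markers of lignified walls, 40 in number, made up 0.169% and 0.163%. Words of the annotation do not place a gene in a tissue. Of the genes with seed terms 5 (3.29%) passed 2-fold with Voyager higher and 1 (0.658%) with Albion higher. Of the photosynthesis genes 2 (2.38%) passed with Voyager higher and 6 (7.14%) with Albion higher, and of the lignified wall genes 3 (7.50%) and 2 (5%). Over all listed genes the shares were 2.55% and 1.76%. The part of wall and seed content in the difference of Phvul.010G144300 was not tested.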

How the data were processed

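Pods of Albion and Voyager, 3 samples of each, were sequenced by the authors as paired-end reads, which were trimmed and filtered with FASTX-Toolkit. Per the labels and the methods of the study, reads were aligned to the v1.0 genome with TopHat 1.4.1 and Bowtie 0.12.7. FPKM was estimated with Cufflinks 1.3.0 and Cuffdiff, and the authors deposited 1 pooled FPKM per gene and genotype, rounded to 2 decimals. A further 5 columns hold the fold change, statistic, p-value, q-value and call of the authors' own comparison, and these were not used.

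Differences were computed as log2(FPKM + 1), Voyager minus Albion, and 2-fold is a difference of at least 1 on this scale, over all listed genes without a filter. Python 3.11.15, numpy 2.4.6, pandas 2.3.3 and matplotlib 3.10.9 were used, and the count past 2-fold was checked on simulated data. Named genes were all HAD IIIB genes, genes within 50 kb of the members, the 3 nearest in level to each member with a mean of at least 1 FPKM, and the 2 highest of each list. Not all of them are named individually. The neighbours past 2-fold and the jasmonate genes of the closing observations were chosen after their values were seen. Members and lists, which were made from words of the annotation, were chosen with earlier results of these data known. Alternatives covered pseudocounts, scaling, filters, fold thresholds and windows. No sequence is printed, as the RefSeq gene table used here is of assembly v2.0 and was not matched to these identifiers.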

Additional observations from a re-analysis of the deposited data

How the results depend on the processing

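No paired analysis was possible because the table holds 1 pooled value per genotype, and for the same reason no replicate could be left out. Every member kept its direction under 3 other scalings, that of Phvul.010G144600 being fixed by the listing. Adding a pseudocount cannot change a direction. Phvul.010G144300 stayed past 2-fold throughout, with 1.78 as its lowest value when both genotypes were scaled to the same total, and Phvul.010G144600 passed 2-fold, at 1.27, with a pseudocount of 0.1, as did Phvul.001G164000 on chromosome 1, at 1.10. That total moved the median log2 difference of all genes from 0.07 to -0.11, so changes are best read relative to it.

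The number of listed genes past 2-fold, 500 with Voyager higher and 345 with Albion higher, became 404 and 502 under that total, a scaling added after seeing the data. It became 175 and 121 with a mean of at least 10 FPKM, 1363 and 833 at 1.5-fold, 99 and 68 at 4-fold, and 882 and 573 with a pseudocount of 0.1. The group near 41.57 Mb exceeded the copies near 9.72 Mb 103-fold in Albion and 151-fold in Voyager by medians, and 51.5-fold and 75.5-fold without Phvul.010G144300. The share of its neighbours past 2-fold with Voyager higher was 0% within 100 kb and 2.91% within 500 kb, against 2.55% of all listed genes. Fragment counts are not in the table, so the precision of the low copies cannot be given.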

Other observations

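Of the 8 genes of the jasmonate and lipoxygenase list that passed 2-fold with Voyager higher, 4 were annotated as lipoxygenase 1, which in Arabidopsis does not feed jasmonate synthesis. The lipoxygenase 2 gene Phvul.011G056500, whose Arabidopsis counterpart feeds jasmonate synthesis, had 237 FPKM in Albion and 679 FPKM in Voyager. The allene oxide synthase gene Phvul.001G017800, of the first committed step, had 17.2 and 39.9 FPKM. The jasmonic acid carboxyl methyltransferase gene Phvul.003G255800, which forms methyl jasmonate in Arabidopsis, had 145 and 338 FPKM. These 3 genes were between 2.31 and 2.86 times higher in Voyager. The other 5 were lipoxygenase genes. Phvul.010G135800 had 20.2 and 76.2 FPKM, Phvul.010G135100 had 3.18 and 18.0 FPKM, and Phvul.010G135700 had 0.12 and 1.73 FPKM. These 3 lipoxygenase 1 genes lie together on chromosome 10 between 40744560 and 40840454, on the same chromosome as the HAD group near 41.57 Mb. Phvul.004G168400, also lipoxygenase 1, had 3.77 and 16.3 FPKM, and Phvul.010G108000, a lipoxygenase 3 gene, was listed at 0 in Albion with 1.31 FPKM in Voyager. For genes as low as Phvul.010G135700 and Phvul.010G108000 in Albion, the direction was fixed by the lower bound of the table. On the common total, 7 of the 51 genes of the list passed 2-fold with Voyager higher and 0 with Albion higher. Of all 19598 listed genes, 404 passed with Voyager higher and 502 with Albion higher on that total. A relation between these genes and the HAD copies was not tested.

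The 3 genes past 2-fold within 250 kb of the HAD group near 41.57 Mb all lay more than 100 kb from it. Phvul.010G146600, annotated as an integrase-type DNA-binding protein, had 12.0 FPKM in Albion and 30.3 FPKM in Voyager. IAA27 (Phvul.010G147200), an auxin response repressor in Arabidopsis, had 6.67 and 21.0 FPKM. Phvul.010G142400, without an annotation, was listed at 0 in Albion and had 1.96 FPKM in Voyager, so its direction was fixed by the lower bound of the table. Around the copies near 9.72 Mb, the WRKY70 gene Phvul.010G057900, a defence regulator in Arabidopsis, had 0.11 FPKM in Albion and 1.25 FPKM in Voyager, and its direction was fixed in the same way. Phvul.010G060200 had 1.10 and 3.93 FPKM.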
